A study of Rattus norvegicus with 8 samples.

Results

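The cytosolic chaperonin CCT, also called TRiC, and the prefoldin-like protein Uri1 were followed in the hippocampus of single rats, as 9 genes: the 8 CCT subunit genes Tcp1, Cct2, Cct3, Cct4, Cct5, Cct6a, Cct7 and Cct8, and Uri1. Every non-control probe whose RefSeq accession belonged to one of these genes was taken, which gave 14 of the 41012 probes and 9 of the 12206 genes named on the array, 13 for the subunits and 1 for Uri1. All 14 were well above background on all 8 arrays and passed the detection filter, as did 31618 probes in all. Male Wistar rats, 6 weeks old at the start, ate the standard feed CE-2 (control, n = 4) or CE-2 with 0.1% coral calcium hydride powder (CCH, n = 4) until they were killed at 8 weeks. Coral calcium hydride is derived from the calcium of coral and loaded with hydrogen, and the series asks whether it bears on antioxidant ability in the brain. Each rat's hippocampal RNA was read on 1 single-colour Agilent array, and no transgene, lesion or injection is given in the titles and treatment labels that set the groups. The free-text sample descriptions speak of a lesion model instead and were not used.

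CCT is a barrel made of a pair of stacked rings, each built from one copy of every subunit, which closes around newly made proteins and lets them fold with the use of ATP. Its best known clients are actin and tubulin, and many WD-repeat proteins, such as G protein beta subunits, also depend on it. The cochaperone prefoldin hands unfolded clients to the barrel, and phosducin-like proteins assist with some of them. Uri1 is a prefoldin-like protein that works with Uxt, Pdrg1 and the R2TP complex (Ruvbl1, Ruvbl2, Rpap3 and Pih1d1), an assembly linked to the building of RNA polymerases and other large complexes.

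Levels are log2 processed signals minus the array's own 75th percentile, so that 0 marks that percentile, and a level can be compared between rats for a probe but not between probes. That percentile was a signal of 611 ± 61.0 (SD, n = 4) without and 732 ± 110 (SD, n = 4) with CCH, and 76.3% to 79.9% of spots were well above background. All 4 arrays of the control feed were on slide 1 and all 4 of CCH on slide 2, so the effects of slide and of diet cannot be told apart in any difference given here. In whole hippocampus, fewer cells of a type and less RNA per cell cannot be told apart either. Of the 12 tested choroid plexus markers, 12 were lower in CCH, with control scores (mean deviation from the 8-array mean, log2) between -0.63 and 2.08 and CCH scores between -3.73 and 1.58. The low CCH scores were those of replicates 2 and 4, at -3.54 and -3.73. Replicates 1 and 3, at 1.25 and 1.58, lay within the control range. Of 12 oligodendrocyte markers 11 were higher in CCH, with control scores between -0.24 and -0.01 and CCH scores between 0.01 and 0.31. Of 11 microglia markers 9 were lower, with control scores between 0.0014 and 0.15 and CCH scores between -0.17 and 0.03, and the part of these markers in the results was not tested. All 10 tested markers of hippocampal subfields, among them Prox1 and Wfs1, were well above background on all 8 arrays. So were all 7 tested of striatum and all 3 of thalamus and habenula, so this mark does not set one region apart. Of the 10 subfield markers 7 were higher in CCH and 3 lower, with Wfs1 at 0.57 ± 0.16 (SE, limma adjusted p = 0.159). A list of pineal and photoreceptor genes, drawn up after their levels had been noticed, had 18 genes on the array. CCH replicate 1 was highest for 16 of them, with a score of 4.25, and control replicate 3 was second for 15, with a score of 1.78. The other 6 arrays scored from -1.21 to -0.75, and the differences of all members, and of some listed genes, are also given without these arrays.

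Across the chaperonin, 7 of 8 subunits lay close together in the 2 diet groups, while Cct6a lay higher in CCH and Uri1 lower. On the brighter probe of each subunit the log2 differences (CCH minus control) ran from -0.12 for Cct8 to 0.34 for Cct6a, with a median of 0.01, beside 0.03 over all tested probes. Of the 13 subunit probes 8 were higher and 5 lower, and 9 lay within 0.15 of 0. The groups did not overlap for 4 of 14 probes, both of Cct6a (higher), the dimmer of Cct8 and that of Uri1 (lower), against 11.3% of all tested probes (6.59% higher, 4.7% lower). Over all tested probes limma called 55 at an adjusted p under 0.05, or 0.174%, of which 24 were higher (0.0759%) and 31 lower (0.098%). With normexp background correction the calls were 69 higher and 177 lower. When 1 array other than CCH replicate 1 was left out 0 or 1 probe was called, 733 were called without CCH replicate 1, and 0 without it and control replicate 3. Cct6a and Uri1 were chosen by these same diet differences, and the other subunits for their place in the complex, so the differences are a description and carry no test.

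**Figure D1:**
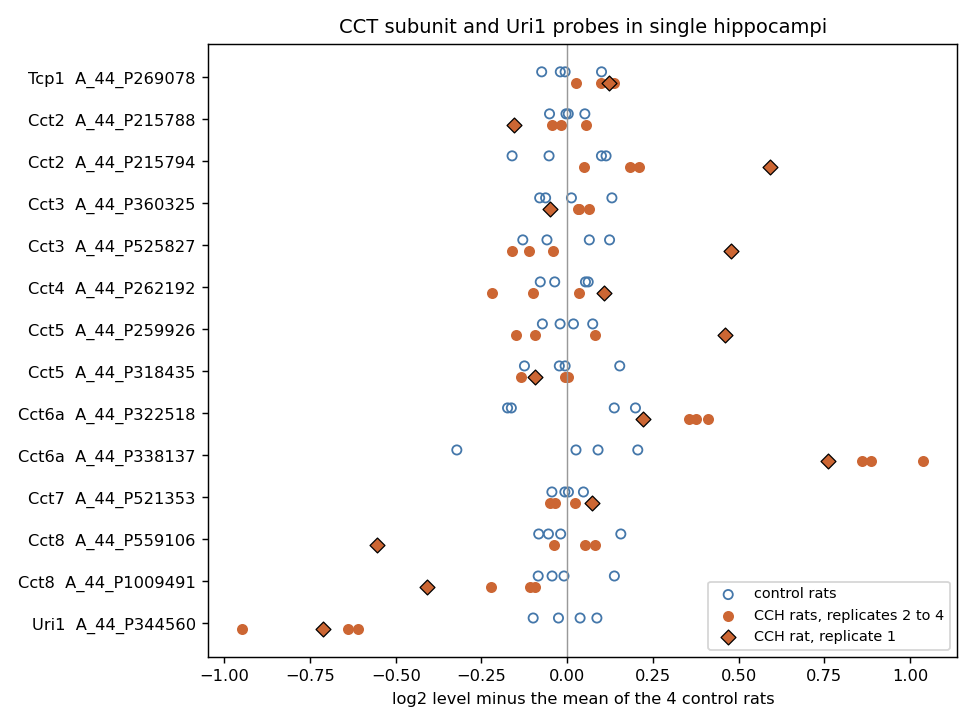
Log2 level of each CCT and Uri1 probe in each rat, as the distance from the mean of the 4 control rats on the horizontal axis; open circles are control rats, filled circles CCH replicates 2 to 4 and diamonds CCH replicate 1. The CCH points lie to the right of all controls on both Cct6a probes and to the left on the Uri1 probe, and the diamond stands apart from the other CCH points on probes of Cct2, Cct3, Cct5 and Cct8.

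Cct6a encodes the zeta subunit of the ring and was represented by 2 probes, one of them little above the local background. On this dim probe A_44_P338137 the processed signal was 27.6, 16.7, 25.5 and 21.9 in control replicates 1 to 4 and 55.2, 56.9, 44.9 and 43.1 in CCH replicates 1 to 4. On the log2 scale these were -4.67, -5.08, -4.55 and -4.73 in the controls and -4.00, -3.72, -3.87 and -3.90 in CCH. Every CCH rat lay above every control, with a gap of 0.55 between the nearest rats of the 2 groups. The mean level was -4.76 ± 0.23 (SD, n = 4) on control feed against -3.87 ± 0.12 (SD, n = 4) with CCH, a difference of 0.89 ± 0.13 (SE) or 1.85-fold. Before background subtraction the spot read 55 to 67 in the controls and 85 to 100 in CCH, over a local background of 33 to 35. Normexp background correction was run with an offset of 50 added to every signal, more than the processed signal of this probe in any control. Such an offset by itself narrows the log2 differences of dim probes. With it, control levels lay between -3.07 and -2.90 and CCH levels between -2.92 and -2.67, so the groups overlapped and the difference was 0.22.

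The second Cct6a probe, A_44_P322518, was bright (spot signals of 578 to 1173) and gave a smaller difference in the same direction. Its level was 0.08, 0.09, 0.45 and 0.39 in control replicates 1 to 4 and 0.47, 0.63, 0.66 and 0.61 in CCH replicates 1 to 4. The lowest CCH rat lay just above the highest control, with a gap of 0.02, and the controls fell into a lower and a higher pair. The mean was 0.25 ± 0.20 (SD, n = 4) on control feed against 0.59 ± 0.08 (SD, n = 4) with CCH, and the difference was 0.34 ± 0.11 (SE) or 1.27-fold. It was 0.35 with normexp, where the 2 groups again did not overlap, and 0.45 ± 0.11 (SE) without control replicate 3 and CCH replicate 1. The dim probe was at 1.00 ± 0.13 (SE) without these 2 arrays. With the choroid plexus score as a covariate, chosen after seeing the data, the dim probe was at 0.90 and the bright one at 0.34. The sequences of the probes were not used here, so cross-hybridisation with Cct6b, a related gene known mainly from testis, was not tested.

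Uri1, which links the prefoldin-like module to R2TP, was lower in every CCH rat than in any control. Its processed signal was 886, 738, 723 and 671 in control replicates 1 to 4 and 664, 593, 531 and 410 in CCH replicates 1 to 4. Relative to the 75th percentile this was 0.34, 0.39, 0.28 and 0.20 in the controls and -0.41, -0.34, -0.31 and -0.64 in CCH. The 2 groups were 0.51 apart at their nearest rats, and CCH replicate 4 was the lowest of all. The mean was 0.30 ± 0.08 (SD, n = 4) on control feed against -0.42 ± 0.15 (SD, n = 4) with CCH, a difference of -0.73 ± 0.10 (SE), which is 1.65-fold lower. The difference was -0.71 with normexp, -0.68 with the choroid plexus covariate and -0.74 ± 0.12 (SE) without control replicate 3 and CCH replicate 1. Uri1 had a single probe, so no second one could be set beside it.

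**Figure D2:**
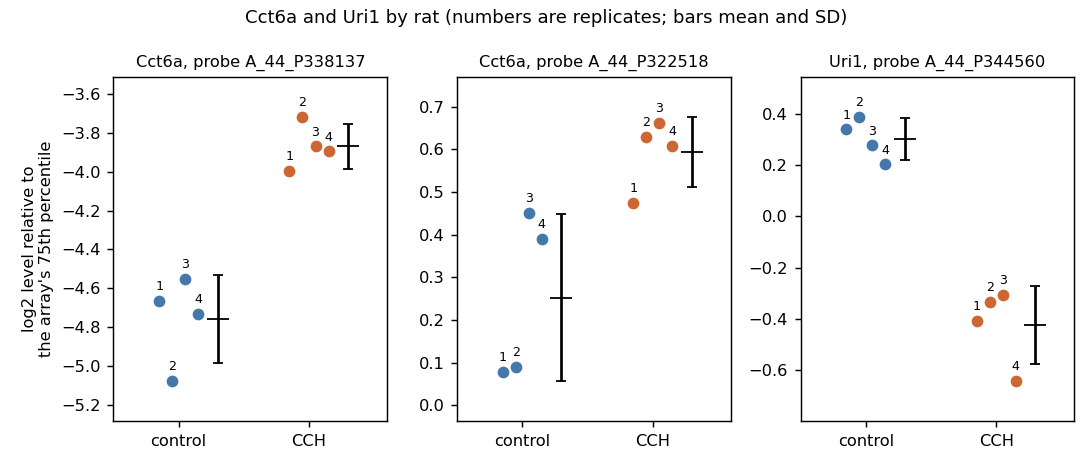
Log2 level relative to the array's 75th percentile for the dim and the bright Cct6a probe and for Uri1, with 1 point per rat numbered by replicate and bars for the mean and SD of each group. The CCH rats lie above the controls by a gap of 0.55 on the dim Cct6a probe and 0.02 on the bright one, and below them by 0.51 for Uri1.

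The bases ahead of the annotated gene start show how different the start regions of Cct6a and Uri1 are from each other and from Tcp1, the alpha subunit, whose level differed little. The 250 bases before the start are given 5′ to 3′ on the gene's strand, from RefSeq on GRCr8, a later assembly than the array's design. Cct6a lies at chr12:32519073-32519322, Uri1 at chr1:99841400-99841649 and Tcp1 at chr1:50384528-50384777, all on the minus strand. Capitals mark matches, on either strand, to the GC box GGGCGG, the CCAAT box CCAAT, the shortened cyclic AMP response element TGACGT, the ETS core CCGGAAG, and a facing pair of heat shock units written TTCNNGAA or GAANNTTC.
Cct6a: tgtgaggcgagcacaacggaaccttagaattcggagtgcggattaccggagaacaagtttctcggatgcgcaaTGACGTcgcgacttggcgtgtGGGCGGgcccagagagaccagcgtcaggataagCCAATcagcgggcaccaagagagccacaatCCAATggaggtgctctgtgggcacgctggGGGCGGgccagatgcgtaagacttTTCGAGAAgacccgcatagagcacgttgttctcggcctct
Uri1: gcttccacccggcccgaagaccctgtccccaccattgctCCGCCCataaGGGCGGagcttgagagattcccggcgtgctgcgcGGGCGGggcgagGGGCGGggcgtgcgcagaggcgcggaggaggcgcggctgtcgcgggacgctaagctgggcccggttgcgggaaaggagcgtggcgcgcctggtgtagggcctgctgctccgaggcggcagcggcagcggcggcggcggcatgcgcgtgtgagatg
Tcp1: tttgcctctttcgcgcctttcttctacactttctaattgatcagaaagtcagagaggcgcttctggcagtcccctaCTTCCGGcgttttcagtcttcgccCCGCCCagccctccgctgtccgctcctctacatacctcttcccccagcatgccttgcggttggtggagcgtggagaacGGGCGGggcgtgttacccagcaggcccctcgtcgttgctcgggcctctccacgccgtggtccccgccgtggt

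The Cct6a region held 6 matches, 2 of them GC boxes and 2 CCAAT boxes, with 1 TGACGT and 1 TTCNNGAA. The Uri1 region held 4 GC boxes and no other match, and its G and C content was 74.4% against 58.4% for Cct6a and 62% for Tcp1. Among all 9 genes the G and C content had a median of 61.2%, against 51.2% over 33469 promoters. A GC box was found in 6 of the 9 regions against 30.5% of all promoters, and a CCAAT box in 5 of 9 against 34.02%. The promoters set beside the 9 regions, here and below, were not matched to them in G and C content. TTCNNGAA was in 2 of 9 (Cct5 and Cct6a) against 7.48% of all, GAANNTTC in 0 of 9 against 7.23%, TGACGT in 2 of 9 (Cct4 and Cct6a) against 6.95%, and the ETS core in 1 of 9 (Tcp1) against 7.27%. No motif overlapped another in the 3 regions printed, and a match says only that the letters occur there.

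The other subunits lay near the controls, and the rat farthest from the rest was mostly CCH replicate 1. Tcp1 was at 2.36, 2.30, 2.48 and 2.37 in the controls and 2.50, 2.48, 2.51 and 2.40 in CCH, a difference of 0.10 ± 0.08 (SE) with overlapping groups, and 0.12 ± 0.08 (SE) without control replicate 3 and CCH replicate 1. Cct7, the eta subunit, was at 2.99, 3.04, 3.00 and 2.95 in the controls and 3.07, 3.02, 2.96 and 2.95 in CCH. Its difference was 0.0021 ± 0.08 (SE), with a 95% interval from -0.17 to 0.18, and it was -0.02 without those 2 arrays. Cct4, the delta subunit, was at 2.29, 2.30, 2.20 and 2.16 in the controls and 2.34, 2.27, 2.14 and 2.01 in CCH, a difference of -0.04 ± 0.10 (SE) with an interval from -0.27 to 0.18, and -0.11 without those 2 arrays. For both Cct7 and Cct4 the groups overlapped, and CCH replicates 1 and 4 were the highest and the lowest of all 8 rats, so the CCH rats reached past the controls at both ends.

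Cct2, Cct3 and Cct5, the beta, gamma and epsilon subunits, each had 2 probes, and for each gene CCH replicate 1 stood far above the other CCH rats on one probe and not on the other. Cct2 on A_44_P215794 was at 2.13, 1.96, 2.11 and 1.85 in the controls and 2.60, 2.22, 2.20 and 2.06 in CCH, while on A_44_P215788 CCH replicate 1 was the lowest of all rats at 3.94. The differences were 0.26 ± 0.13 and -0.04 ± 0.08 (SE). Without CCH replicate 1 the first was 0.15 and the second -0.0021, and without control replicate 3 as well they were 0.18 and -0.0010.

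Cct3 repeated that split. On A_44_P525827 the controls were at 2.06, 2.00, 1.81 and 1.88 and the CCH rats at 2.41, 1.89, 1.82 and 1.78, so that 3 CCH rats lay within the control range or just below it. Its difference was 0.04 ± 0.15 (SE), and it turned to -0.11 without CCH replicate 1 and to -0.15 ± 0.09 (SE) without control replicate 3 as well. On the brighter probe A_44_P360325 the controls were at 5.99, 6.18, 6.06 and 5.97 and the CCH rats at 6.002, 6.09, 6.12 and 6.08, a difference of 0.02 ± 0.08 (SE), or 0.05 without those 2 arrays.

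Cct5 did the same. On A_44_P259926 the controls were at 2.16, 2.11, 2.07 and 2.01 and the CCH rats at 2.55, 2.17, 1.99 and 1.94, and the difference of 0.07 ± 0.14 (SE) turned to -0.05 without CCH replicate 1, to -0.06 without control replicate 3 as well and to -0.07 with normexp. On A_44_P318435 the controls were at 1.84, 1.86, 1.74 and 2.02 and the CCH rats at 1.77, 1.86, 1.87 and 1.73, a difference of -0.06 ± 0.09 (SE), or -0.09 without those 2 arrays. On the 3 probes with the high CCH replicate 1, that rat lay 0.44, 0.58 and 0.52 above the mean of the other CCH rats for Cct2, Cct3 and Cct5. On the other probe of each gene it lay 0.15, 0.09 and 0.05 below that mean.

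Cct8, the theta subunit, went the other way in CCH replicate 1 on both probes. On the bright probe A_44_P559106 the controls were at 5.04, 5.22, 4.98 and 5.01 and the CCH rats at 4.51, 5.02, 5.11 and 5.14. Only CCH replicate 1 lay below the controls, the difference was -0.12 ± 0.15 (SE), and it was 0.03 without that rat and 0.0039 without control replicate 3 as well. On A_44_P1009491 the controls were at 1.59, 1.81, 1.63 and 1.67 and the CCH rats at 1.27, 1.58, 1.45 and 1.57. Here the groups were just apart, by 0.01, with a difference of -0.21 ± 0.10 (SE), -0.14 without CCH replicate 1 and -0.16 ± 0.09 (SE) without control replicate 3 as well. CCH replicate 1 was the array with the highest pineal and photoreceptor score, and the part of that in these values was not tested.

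Whether the probes of a gene varied together among rats of the same diet does not use the diet difference and was tested for the 5 genes with 2 probes, over 8 arrays, by exact permutation within the groups (576 arrangements, two-sided). The Cct8 probes had a Pearson r of 0.85 (p = 0.0469, 0.234 after Benjamini-Hochberg adjustment over the 5 genes) and a Spearman rho of 0.64 (p = 0.0972, adjusted 0.486). Without CCH replicates 1 and 4, the arrays farthest from the median on the brighter probe, r was 0.61. For Cct6a r was 0.62 (exact permutation p = 0.198) and rho 0.52 (p = 0.319), with r at 0.78 without control replicates 1 and 2. For Cct2, Cct3 and Cct5 r was -0.45 (exact permutation p = 0.415), -0.36 (p = 0.255) and -0.15 (p = 0.738), and rho was -0.24 (p = 0.656), -0.36 (p = 0.352) and -0.14 (p = 0.767). Without the 2 arrays farthest from the median on the brighter probe, these r values were 0.48, -0.89 and -0.44. For Cct3 these arrays were control replicates 2 and 4. CCH replicate 1, at 2.41 the highest on the dimmer Cct3 probe, was thus kept in the -0.89. After adjustment no r or rho reached 0.05, the smallest adjusted values being 0.234 for r and 0.486 for rho, and Cct2 changed sign when CCH replicates 1 and 3 were left out.

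**Figure D3:**
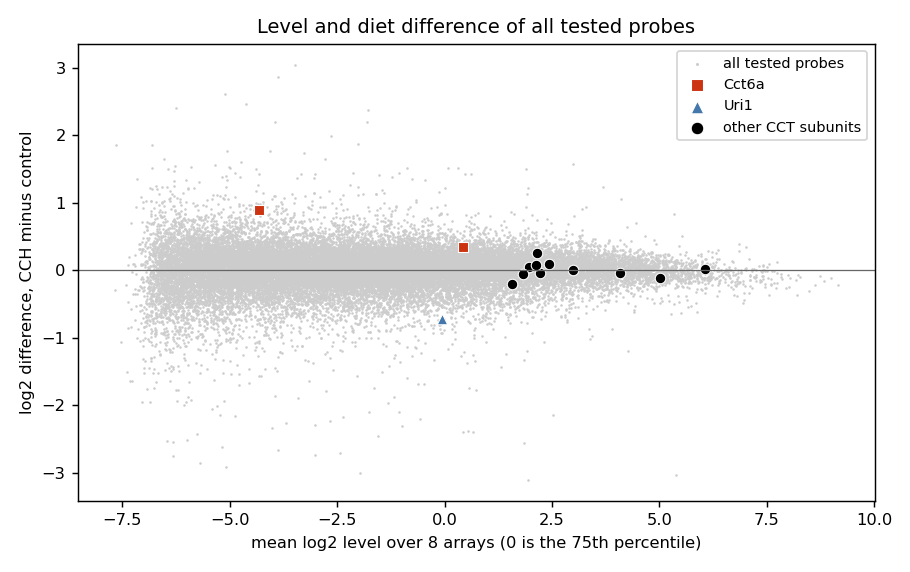
Log2 difference (CCH minus control) on the vertical axis against the mean log2 level over 8 arrays for all 31618 tested probes in grey, with Cct6a as squares, Uri1 as a triangle and the other CCT subunits as black circles. The other subunits lie within 0.26 of 0, with Cct6a at 0.89 and 0.34 and Uri1 at -0.73.

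Counting extremes over the set, CCH replicate 1 was the highest of 8 rats for 5 of 14 probes and the lowest for 3, and CCH replicate 4 was the lowest for 6. Control replicate 2 was the highest for 4, and control replicate 3 was neither the highest nor the lowest for any. Without control replicate 3 and CCH replicate 1, 4 of 8 subunits were higher in CCH and 4 lower on the brighter probe, with a median of 0.0015 and a range from -0.11 for Cct4 to 0.45 for Cct6a. Setting aside Cct6a, the other 11 subunit probes had a median of 0.0021 with all arrays and -0.02 without CCH replicate 1, when 11 of 11 lay within 0.15 of 0.

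The helpers and clients of the chaperonin were then read from 9 lists with 109 entries in all, of which 78 were tested, 1 probe per gene. By limma, adjusted over all tested probes, 0 of the 78 were called. At an unadjusted p under 0.05 there were 8 higher and 1 lower, or 11.5% of the 78, against 15.4% of all tested probes (8.79% higher, 6.59% lower). In all 54 were higher and 24 lower, with a median log2 difference of 0.08 beside 0.03 over all tested probes. Of all 31618 tested probes 17434 were higher and 14184 lower, and the median over the 12470 named ones was 0.02. The part of CCH replicate 1 in the 54 was not tested. With array weights 2 of the 78 were called, Actg2 and Actc1, and without CCH replicate 1 Actg2 was called.

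**Figure D4:**
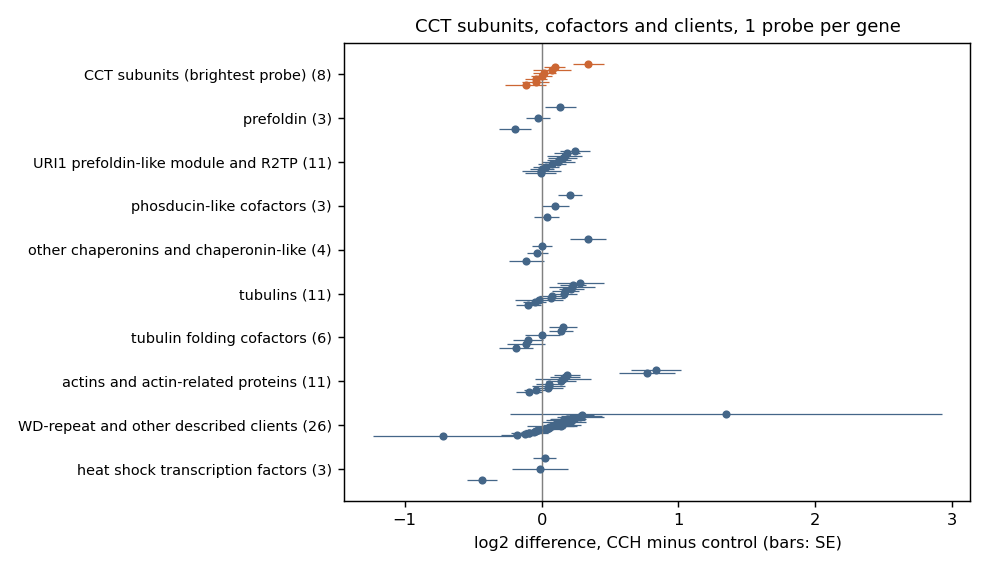
Log2 difference (CCH minus control) with its SE for each tested gene of the CCT subunits and of 9 lists of cofactors and clients, with the number of genes in parentheses. Most points lie near 0; the exceptions include Cct6a on its bright probe at 0.34, Actg2 and Actc1 to the right, Hsf4 to the left, and 2 genes with wide error bars, Gnb3 and Sphk1.

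Of prefoldin, which delivers clients to CCT, 3 of 6 subunits were tested, 1 higher and 2 lower, with a median of -0.03. Pfdn5 stood at 3.18, 3.39, 3.604 and 3.43 in the controls and 3.01, 3.21, 3.34 and 3.26 in CCH, a difference of -0.20 ± 0.12 (SE, limma adjusted p = 0.477) in overlapping groups, and -0.07 without control replicate 3 and CCH replicate 1. Pfdn6 was at 0.14 ± 0.11 (SE, limma adjusted p = 0.624). The phosducin-like cofactors had 3 of 5 tested, all 3 higher, with Txndc9 at 0.21 ± 0.09 (SE, limma adjusted p = 0.317; 0.26 on its other probe) and Pdcl3 at 0.10 ± 0.10 (SE, limma adjusted p = 0.674).

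The partners of Uri1 were also read, and none was called. Of 16 genes of its prefoldin-like module, R2TP and associated factors, 11 were tested, 9 higher and 2 lower, with a median of 0.12 and 0 at an unadjusted p under 0.05 by limma. Over all tested probes 17434 were higher and 14184 lower. Ruvbl2, an AAA+ ATPase of R2TP, was at 1.37, 1.54, 1.46 and 1.55 in the controls and 2.00, 1.60, 1.67 and 1.62 in CCH, a difference of 0.24 ± 0.11 (SE, limma adjusted p = 0.346) that was 0.15 without CCH replicate 1 and 0.14 without control replicate 3 as well. Its groups did not overlap, and CCH replicate 1 was the highest. Pih1d1, also of R2TP, was at 0.18 ± 0.09 (SE, limma adjusted p = 0.395), or 0.09 with normexp. The genes of the list nearest 0 were Uxt at 0.03 ± 0.09 (SE), Pdrg1 at -0.01 ± 0.11 (SE), Ruvbl1 at 0.0021 ± 0.09 (SE) and Rpap3 at -0.0014 ± 0.14 (SE). Higher than these were Ppp1cc at 0.17 ± 0.13 (SE), Gpn3 at 0.15 ± 0.11 (SE), Dmap1 at 0.13 ± 0.09 (SE) and Rpap2 at 0.07 ± 0.10 (SE). Polr2e, the shared polymerase subunit RPB5 that Uri1 binds, was at 0.12 ± 0.12 (SE, limma adjusted p = 0.685; 0.02 without CCH replicate 1).

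Among the other chaperonins, the mitochondrial pair Hspd1 and Hspe1 (HSP60 and HSP10) was at -0.03 ± 0.08 and 0.0030 ± 0.08 (SE). Cct6b was at -5.57, -5.61, -5.70 and -5.17 in the controls and -5.11, -5.34, -5.09 and -5.15 in CCH, with overlapping groups. Its difference was 0.34 ± 0.13 (SE, limma adjusted p = 0.265) and turned to -0.15 with normexp. Mkks, a chaperonin-like protein of the cilium, was at -0.11 ± 0.13 (SE, limma adjusted p = 0.734; 0.07 on its other probe). Of the heat shock factor list, a family known for driving chaperone genes under stress, 3 of 4 were tested. Hsf4 was at -2.58, -2.69, -2.56 and -2.87 in the controls and -3.16, -3.12, -2.90 and -3.24 in CCH, a difference of -0.43 ± 0.11 (SE, limma adjusted p = 0.126) with no overlap, and -0.38 without control replicate 3 and CCH replicate 1. Hsbp1, which binds heat shock factor 1, was at 0.02 ± 0.08 (SE, limma adjusted p = 0.928).

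Tubulins, obligate clients of CCT, had 11 of 19 tested, 8 higher and 3 lower, with a median of 0.16. Tubb4a was at 0.23 ± 0.09 (SE, limma adjusted p = 0.290) and Tubb6 at 0.22 ± 0.09 (SE, limma adjusted p = 0.312), but the other Tubb6 probe was at -0.47. The tubulin folding cofactors, which act on tubulin after its release from CCT, were 3 higher and 3 lower of 6 tested, with Tbce at 0.14 ± 0.09 (SE, limma adjusted p = 0.488) and Tbcc at 0.16 ± 0.10 (SE, limma adjusted p = 0.512).

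Of actins and actin-related proteins 11 of 16 were tested, 9 higher and 2 lower, with a median of 0.14. The smooth muscle actin Actg2 was at -0.55, -0.44, -0.48 and -0.65 in the controls and 0.89, 0.15, 0.04 and 0.15 in CCH. Its groups did not overlap, and the difference was 0.84 ± 0.18 (SE, limma adjusted p = 0.0865) and 0.66 ± 0.09 (SE, limma adjusted p = 0.0835) without control replicate 3 and CCH replicate 1. The cardiac actin Actc1 was at 0.77 ± 0.20 (SE, limma adjusted p = 0.137), with 0.15 on its other probe. The skeletal muscle actin Acta1 was at 0.16 ± 0.20 (SE, limma adjusted p = 0.764; -0.05 with normexp). The cytoplasmic Actb was at 0.05 ± 0.09 (SE).

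The WD-repeat and other clients had 26 of 29 tested, 18 higher and 8 lower, with a median of 0.15. Their score (mean deviation from the 8-array mean, log2) was 0.27 in CCH replicate 1. It was -0.01, -0.07 and 0.03 in CCH replicates 2 to 4, within the control range of -0.14 to 0.05. The part of CCH replicate 1 in these counts and this median was not tested. Strn, the scaffold striatin, was at 0.29 ± 0.09 (SE, limma adjusted p = 0.186; 0.20 on its other probe and 0.07 with normexp), and the G protein subunit Gnb4 at 0.23 ± 0.09 (SE, limma adjusted p = 0.287; 0.11 with normexp). Gnb3, the beta subunit of cone photoreceptors, was at -2.32, -1.98, 1.38 and -2.84 in the controls and 4.71, -1.57, -1.90 and -1.61 in CCH. Its high arrays were control replicate 3 and CCH replicate 1, the 2 with high pineal and photoreceptor scores, and its difference was 1.35 ± 1.58 (SE) with all arrays and -0.25 without CCH replicate 1. It is named here after its values were seen, and it is 1 of the 18 genes of that list.

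The genes next to Cct6a and Uri1 in the RefSeq order were also read. Beside Cct6a, the serine synthesis gene Psph was at 0.45 ± 0.19 (SE, limma adjusted p = 0.306) and Sumf2, on the other side, at 0.05 ± 0.22 (SE, limma adjusted p = 0.949). Beside Uri1, the cyclin gene Ccne1 was at 0.19 ± 0.13 (SE, limma adjusted p = 0.530; 0.09 on its other probe), and Plekhf1, the third gene on that side, at -0.39 ± 0.23 (SE, limma adjusted p = 0.467). No neighbour within 3 protein-coding genes that was tested passed the threshold, 4 beside Cct6a and 2 beside Uri1.

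Likeness was measured as the Pearson r of deviations from the group means over 8 arrays, for 9704 named genes, as a description with no test. The values given are the highest of all 9704, and how high chance alone would bring them was not tested. The genes most like the dim Cct6a probe were L3hypdh (r = 0.96), Adgrg6 (0.95) and Ftsj3 (0.94), and their diet differences were -0.26, -0.57 and -0.10, opposite in sign to that of Cct6a. Those most like Uri1 were Trib1 (r = 0.95), Pa2g4 (0.93) and Acp2 (0.92). The diet difference of Trib1, a pseudokinase, was -0.01 ± 0.18 (SE, limma adjusted p = 0.982). Pa2g4, an ErbB3-binding protein, did not pass the threshold, at -0.56 ± 0.08 (SE, limma adjusted p = 0.0525), and Acp2, a lysosomal acid phosphatase, was at -0.42 ± 0.10 (SE, limma adjusted p = 0.105). Those most like Tcp1 were Isy1 (r = 0.97), Osbpl3 (0.96) and Tssk2 (0.95).

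**Figure D5:**
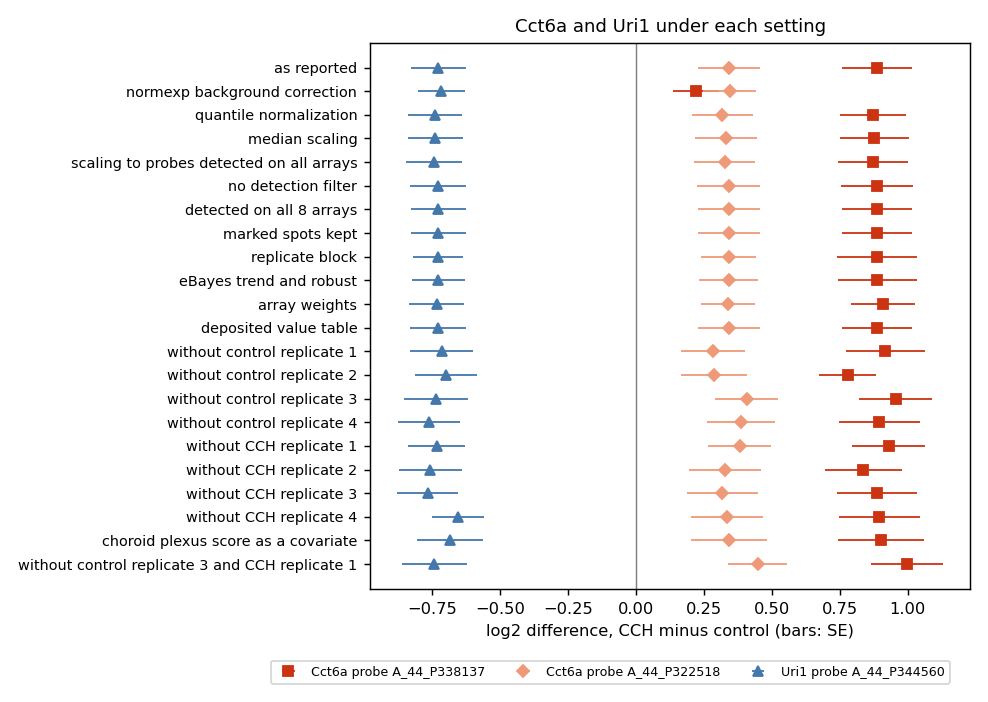
Log2 difference (CCH minus control) with its SE for the dim and the bright Cct6a probe and Uri1, as reported and under each other way of processing the arrays or leaving some out. The Uri1 and bright Cct6a values stay on their side of 0 throughout, and the dim Cct6a probe drops from 0.89 to 0.22 with normexp background correction and its offset of 50.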

How the data were processed

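Intensity was read from the Agilent Feature Extraction 9.5 file of each array (per the file headers and the submitters' processing notes), where the deposited processed signal is a background-subtracted, detrended intensity of 1 array with no scaling between arrays. The deposited value table equals it within a relative difference of 0.00498. Spots marked as outliers were set to missing, log2 signals had the 75th percentile of the array's non-control spots subtracted, and spots of a probe were averaged. Testing needed detection above background by the scanner's mark on 4 or more arrays and 3 or more values per group. Log2 differences came from limma 3.58.1 in R 4.3.3, with p-values adjusted by Benjamini-Hochberg across every tested probe and called under 0.05. RefSeq accessions (GRCr8 table) named 15184 probes. The array grid names rn4, so no array coordinates are given.

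The members and lists were chosen with earlier results of these data known. Named genes were all members, and from each list any called gene or otherwise the 2 with the smallest unadjusted p. Uxt, Pdrg1, Ruvbl1, Rpap3, Polr2e, Ppp1cc, Gpn3, Dmap1, Rpap2, Hspd1, Hspe1, Actb, Acta1, Gnb3, Sphk1 and the neighbours were added. The files held no mean spot signal, so normexp used the median spot signal with an offset of 50. Each rat gave 1 array, and 4 arrays per group limit the precision. Numbers shared by the titles' replicates equal the slide position.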

Additional observations from a re-analysis of the deposited data

Results flagged for a closer look

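In groups of 4 arrays, an array whose gap to its nearest neighbour took up more of the group's range than Dixon's 95% critical value was looked at again. This covered 64 groups, for the members and the list genes picked by smallest unadjusted p, and chance gives a share of about 0.05. None of the 28 groups of the CCT and Uri1 probes passed. CCH replicate 1 was apart for Ruvbl2 (2.00 against 1.67 for the next array, 0.837 of the range), for Actg2 (0.89 against 0.15, 0.868 of the range) and, on the low side, for Pdcl3 (0.83 against 1.04, 0.872 of the range). CCH replicate 3 was low for Gnb4 (-2.68 against -2.47, 0.882 of the range).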

How the results depend on the processing

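The number of probes called by limma was 55 (24 higher, 31 lower) and moved with the processing. It was 246 with normexp (69 higher, 177 lower), 29 with no detection filter, 209 with detection on all 8 arrays, 215 with the eBayes trend and robust settings, 1293 with array weights, and 1 with the choroid plexus covariate. Leaving out 1 array gave 0 to 733, the highest without CCH replicate 1. Without control replicate 3 and CCH replicate 1 it was 0, with 5742 probes at an unadjusted p under 0.05. The block on replicate number gave 0 calls with 4966 at an unadjusted p under 0.05, against 4862 without the block. Same-numbered arrays deviated together with correlations of 0.15, 0.08, -0.0048 and 0.25, so the numbers were not taken as pairs. The number of called list genes was 0, 0 to 1 with 1 array left out, and 2 with array weights. The median over the subunits was 0.01, and ran from -0.0097 (without control replicate 4) to 0.041 (without control replicate 2) with 1 array left out. Among the list genes picked by smallest unadjusted p, the sign turned for Cct6b (-0.15 with normexp) and Hsbp1, and the cause was not tested. Hsbp1 was at -0.010 without control replicate 3 and -0.0034 without CCH replicate 4, in a leave-one-out range up to 0.055. Without both control replicate 3 and CCH replicate 1 it was at -0.021. The list genes added by name were read under fewer settings, and signs turned among them too. Without CCH replicate 1 Gnb3 was at -0.25, Uxt at -0.03, Pdrg1 at 0.06 and Rpap3 at 0.13. Acta1 was at -0.05 with normexp. Member probes with differences near 0 also changed sign under some settings: Cct3 A_44_P525827 (-0.11 without CCH replicate 1) and A_44_P360325 (-0.0067 without control replicate 4), Cct5 A_44_P259926 (-0.07 with normexp), Cct8 A_44_P559106 (0.03 without CCH replicate 1), Cct4 (0.01 without CCH replicate 4) and Cct7 (-0.03 with quantile normalization). Uri1 ran from -0.77 to -0.65 and the bright Cct6a probe from 0.28 to 0.45 over all settings, and the dim one from 0.22 to 1.00. The choroid plexus covariate and the joint leaving out of 2 arrays were added after seeing the data. Slide could not be used as a block, since it equals diet.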

Other observations

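Pineal and photoreceptor genes were prominent on 2 of 8 arrays, and the list was drawn up after this was seen. Tph1, the peripheral and pineal tryptophan hydroxylase, was at -7.78, -8.96, 0.95 and -6.90 in control replicates 1 to 4 and 4.75, -4.06, -8.97 and -8.89 in CCH replicates 1 to 4. Aanat, the enzyme that sets the rhythm of melatonin synthesis, was at 0.75 in CCH replicate 1 and between -3.78 and -3.24 elsewhere, with control replicate 3 at -3.24. Drd4, a dopamine receptor of the pineal and retina, was at 2.24 in CCH replicate 1, -3.65 in control replicate 3 and between -6.11 and -5.30 on the others. All 18 genes were well above background in CCH replicate 1 and 17 in control replicate 3, against 9 to 11 on the other arrays. The part of this in the values of the CCT probes was not tested.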
